A study of Mus musculus with 4 samples.

Results

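The matrix metalloproteinases (MMPs), the ADAMTS proteases and the tissue inhibitors of metalloproteinases (TIMPs) were examined on expression microarrays of mouse mammary epithelial cells. The members were the genes whose name on the array begins with Mmp, Adamts or Timp followed by a digit. They came to 42 of 28146 gene names and were read by 71 of the 41174 non-control probes, with 28 probes for 21 MMP genes, 38 for 17 ADAMTS genes and 5 for 4 TIMP genes. RNA was taken from EPH-4 cells, a non-malignant mouse mammary epithelial line. The EV-50 line carries the empty H1-2 vector, and the shGR-19 line carries an shRNA vector against the endogenous glucocorticoid receptor (GR, encoded by *Nr3c1*), which the labels describe as depleted rather than absent. Both lines also carry the pBABE-puro selection plasmid, both were kept in serum-free medium with 2 µg/ml puromycin, and no glucocorticoid was given to the cells that were arrayed. Each line is a single clone, so differences between clones cannot be told apart from differences in GR. The labels give 2 arrays per line, replicates 1 and 2, with 300 ng of RNA labelled with Cy3 for each and all 4 arrays on 1 slide read in 1 scan. Nothing in the sources states that the duplicates were separate cultures, so p-values measure only the spread between arrays, and precision is limited by how few arrays there were.

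MMPs are zinc endopeptidases that cleave collagens, laminins, proteoglycans and many cell-surface and signalling proteins. Most are secreted as inactive zymogens, while the membrane-type MMPs are held at the cell surface. The ADAMTS proteases are secreted and bear thrombospondin motifs, and they process procollagens or cleave proteoglycans such as aggrecan and versican. TIMPs bind the active site of these enzymes and so set how much of the protease present can act. In the mammary gland this system opens the matrix during branching of the ducts and degrades the basement membrane in involution after weaning. Transcription of several MMP genes is known to depend on AP-1 and ETS factors, and liganded GR is a textbook repressor of AP-1-driven MMP genes.

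The sequences that the results turn on are the stretches of mRNA that some probes read and the promoters of 4 genes called in the value table. The following probes, given 5′ to 3′ as the array's sequence annotation gives them and in the build mm9, are from *Adamts1* (chr16:85796191-85796250, minus strand), *Mmp9* (chr2:164780303-164780362, plus strand) and *Timp1* (chrX:20451675-20451733 and chrX:20449905-20449964, plus strand). *Adamts1* was lower in shGR-19 by both of its probes, *Mmp9* differed most between duplicate arrays, and *Timp1* was read alike by its 2 probes.
Adamts1 probe: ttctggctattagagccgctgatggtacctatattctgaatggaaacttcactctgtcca
Mmp9 probe: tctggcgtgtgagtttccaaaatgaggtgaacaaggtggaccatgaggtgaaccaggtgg
Timp1 brighter probe: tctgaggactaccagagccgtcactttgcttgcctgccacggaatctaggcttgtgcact
Timp1 dimmer probe: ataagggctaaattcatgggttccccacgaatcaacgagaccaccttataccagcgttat

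Promoters were taken as the 250 bases before the start of the gene in the RefSeq annotation of GRCm38.p6, a different build from the array's, and printed on the gene's own strand. They are shown for 2 genes that were higher and 2 that were lower in shGR-19 by the table of values the authors deposited: *Mmp10* (chr9:7502092-7502341, plus strand), *Mmp11* (chr10:75932503-75932752, minus strand), *Mmp15* (chr8:95352046-95352295, plus strand) and *Adamts1* (chr16:85803114-85803363, minus strand). Capitals mark an AP-1 site (TGANTCA), an ETS site (GGAAGT) or the hexamer to which 1 GR monomer binds (AGAACA) on either strand.
Mmp10: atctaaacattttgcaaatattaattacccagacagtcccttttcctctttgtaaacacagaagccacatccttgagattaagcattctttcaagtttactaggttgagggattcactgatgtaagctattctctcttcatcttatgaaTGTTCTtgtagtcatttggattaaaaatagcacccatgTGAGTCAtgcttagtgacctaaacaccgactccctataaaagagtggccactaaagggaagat
Mmp11: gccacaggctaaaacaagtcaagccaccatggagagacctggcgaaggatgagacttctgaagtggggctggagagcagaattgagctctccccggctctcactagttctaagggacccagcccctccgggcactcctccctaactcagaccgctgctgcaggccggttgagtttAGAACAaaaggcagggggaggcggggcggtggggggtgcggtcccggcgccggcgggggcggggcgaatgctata
Mmp15: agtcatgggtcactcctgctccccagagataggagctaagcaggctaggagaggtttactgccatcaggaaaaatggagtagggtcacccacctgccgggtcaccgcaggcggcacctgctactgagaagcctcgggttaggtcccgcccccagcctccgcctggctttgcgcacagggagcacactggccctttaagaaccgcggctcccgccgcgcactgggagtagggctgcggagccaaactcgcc
Adamts1: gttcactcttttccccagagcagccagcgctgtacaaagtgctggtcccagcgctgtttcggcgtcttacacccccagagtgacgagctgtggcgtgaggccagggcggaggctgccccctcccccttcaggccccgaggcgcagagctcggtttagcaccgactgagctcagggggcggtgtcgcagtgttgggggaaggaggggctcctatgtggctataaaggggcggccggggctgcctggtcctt

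A promoter entry was at hand for 29 of the 42 member genes. The AP-1 letters stood in the promoters of 7 of these 29 genes (24.1%), compared with 7.82% of all 27025 genes with a promoter (6.75% of the 32851 windows of the same length). The 7 were *Mmp3*, *Mmp7*, *Mmp10*, *Mmp12*, *Mmp13*, *Mmp1a* and *Mmp20*. All of them lie in one cluster on chromosome 9 that holds 8 of the member genes, the other being *Mmp8*. Of the 19 member genes with a promoter entry and a probe kept for testing, 3 held the AP-1 letters (*Mmp3*, *Mmp7* and *Mmp10*). In the *Mmp10* promoter the AP-1 letters began 63 bases before the gene's start and a GR hexamer began 101 bases before it. The ETS letters were found in 9 of the 29 genes, in 22.2% of all genes and in 19.7% of all windows, and the GR hexamer in 4 of the 29 (*Mmp7*, *Mmp10*, *Mmp11* and *Mmp23*), in 18.2% of all genes and in 16.1% of all windows. The *Mmp11* hexamer began 75 bases before the start. The windows of *Mmp15*, *Adamts1* and *Adamts2* held none of these 3 sets of letters. No motif letters of one kind contain those of another, and a match is a description of the sequence only.

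The same 4 samples were deposited both as scanner output and as a value table, and the lines differed in another way in each. The scanner values are log2 ratios of the background-subtracted signal to its 75th percentile on that array, and in every list of 4 values the order is EV-50 replicate 1, EV-50 replicate 2, shGR-19 replicate 1 and shGR-19 replicate 2. The value table holds log2 values centred on the median of each probe over the 4 columns, so only differences can be read from it. The brightest *Nr3c1* probe read, by the scanner, 1.81, 1.92, 1.46 and -0.03. The array labelled shGR-19 replicate 1 thus lay close to the EV-50 arrays, and only the array labelled shGR-19 replicate 2 stood clearly below them. The scanner difference between the lines was -1.15 ± 0.55 (SE), which did not pass limma's test (adjusted p = 1.00), whereas in the value table the same probe was lower by -1.94 ± 0.05 (SE, adjusted p = 0.00216). In the value table each of the 4 *Nr3c1* probes was lower, by -1.94 to -1.41. Over all 24443 probes kept for testing, the duplicates of a line differed on the scanner arrays with an SD of 0.691 (EV-50) and 0.730 (shGR-19), more than the 2 lines differed within replicate number 1 (SD 0.377) or within replicate number 2 (SD 0.569). Both sources are therefore reported for the member genes described in full, with each replicate number on its own where the sources part. Partner and marker genes, read further below, are given mostly by the table. What made the scanner arrays and the table differ was not tested, and the files do not settle whether each scanner output belongs to the sample it is labelled with, so every scanner difference below is one between arrays as labelled.

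To be kept, a probe had to stand well above background on both duplicates of one or the other line, and 36 of the 71 member probes passed, for 26 of the 42 genes. Of the 36, 15 were MMP, 16 ADAMTS and 5 TIMP probes. Of these, 23 were well above background on all 4 arrays. All the others passed through the shGR-19 arrays, and none passed through EV-50 alone. On single arrays 25, 34, 36 and 41 of the member probes were well above background (35.2%, 47.9%, 50.7% and 57.7%), compared with 53.3%, 61.4%, 61.2% and 62.6% of all probes. All 4 TIMP genes were detected on every array, as were 8 of 21 MMP and 7 of 17 ADAMTS genes. Neutrophil collagenase *Mmp8*, macrophage elastase *Mmp12*, *Mmp16*, *Mmp19*, enamelysin *Mmp20*, *Mmp21* and *Mmp25* were well above background on no array, and neither were *Adamts3*, *Adamts13* (the protease of von Willebrand factor), *Adamts15*, *Adamts16*, *Adamts19* and *Adamts20*. These 13 genes were below what the arrays could measure, which does not show that they are silent.

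Limma called none of the 36 kept member probes on the scanner arrays. A call needed a difference over 2-fold with a p below 0.01 after Benjamini-Hochberg adjustment, and by this rule 0 of all 24441 probes tested were higher in shGR-19 and 0 were lower (0% in each direction). At an unadjusted p below 0.05 the count was 0 of 36 members and 209 of all probes (0.855%). In the value table the same test called 4 member probes higher in shGR-19 (11.1% of the 36, compared with 1.87% of all 24443 kept probes) and 2 lower (5.56%, compared with 2.39%). The 4 were of *Mmp2*, *Adamts2*, *Mmp10* and *Mmp11*, and the 2 of *Mmp15* and *Adamts1*. The probes of *Mmp2*, *Adamts2* and *Mmp15* had passed the filter through the shGR-19 arrays alone, so these shares depend on that filter. With no limit on the fold, 7 member probes were higher and 3 lower at an adjusted p below 0.01 (10 of 36 in all, compared with 5.53%, 6.04% and, in all, 11.6% of the kept probes). Leaving out any single column of the table, or adding the replicate number as a block, removes 1 of the 2 residual degrees of freedom. Calls lost in such fits are therefore no result about the members. With the block the 6 called probes had adjusted p from 0.0294 to 0.0307. With all probes of the array tested they had adjusted p from 0.0118 to 0.0207, so none was called in either. The share of all probes called is given for neither. The number of member probes above and below 0 was 21 and 15 in the table and 20 and 16 on the scanner arrays. The median difference was 0.07 in each source, beside medians of 0.01 (table) and 0.02 (scanner) over all kept probes.

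**Figure D1:**
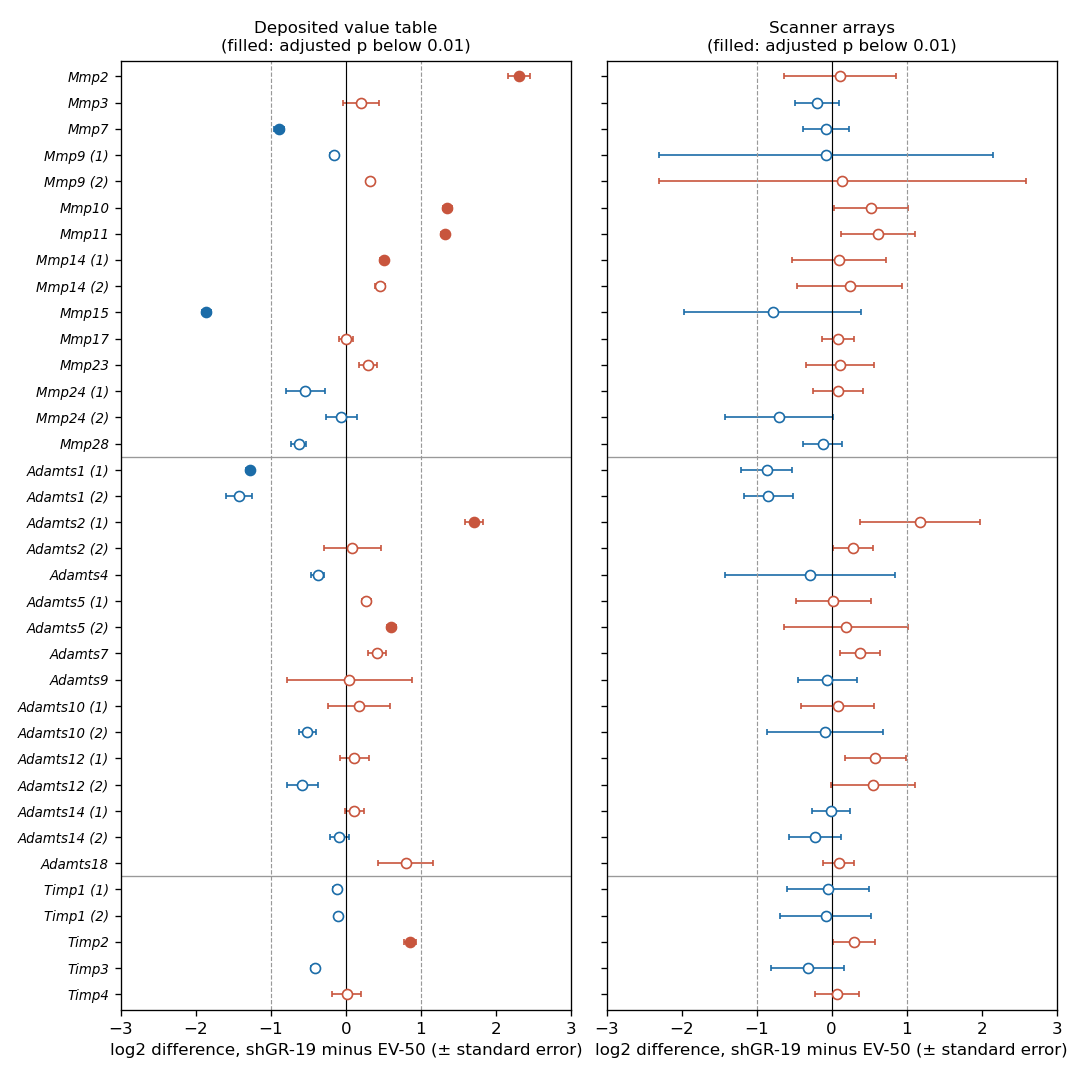
Difference between shGR-19 and EV-50 (log2, shGR-19 minus EV-50, horizontal axis, with the standard error from limma as bars) for each of the 36 kept probes, in the deposited value table (left) and on the scanner arrays (right). Filled points passed an adjusted p below 0.01, dashed lines mark a 2-fold difference, red is higher and blue lower in shGR-19, and numbers after a name rank the probes of one gene by brightness. There were 10 probes that passed in the table and 0 on the scanner arrays, where the error bars of the 2 *Mmp9* probes are the widest. *Adamts9* and *Adamts12* (1) were not well above background on either EV-50 array.

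Among the secreted MMPs, gelatinase A (*Mmp2*), which cleaves type IV collagen and denatured collagens, had the largest increase of any member in the value table. Its 4 table values were -1.41, -1.04, 1.04 and 1.13, so both shGR-19 columns lay above both EV-50 columns. The increase was 2.31 ± 0.15 (SE) on the log2 scale, or 4.94-fold (limma, adjusted p = 0.00516). On the scanner arrays the probe was low, at -4.19, -5.80, -5.58 and -4.18. The lowest signals of any probe well above background were -4.81, -5.88, -5.96 and -6.08. The *Mmp2* probe was well above background on all arrays but that labelled EV-50 replicate 2. The lines overlapped there: shGR-19 was lower by -1.39 between the arrays labelled replicate 1 and at least 3.07-fold higher between those labelled replicate 2, with a fitted difference of 0.12 ± 0.75 (SE).

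Stromelysin 2 (*Mmp10*), a broad matrix protease of epithelial cells, rose in the value table from -0.71 and -0.64 in EV-50 to 0.64 and 0.73 in shGR-19, a difference of 1.35 ± 0.06 (SE, 2.55-fold, adjusted p = 0.00360). Its scanner values were -2.41, -2.56, -2.62 and -1.30. The 1 array that stood apart was that labelled shGR-19 replicate 2, and the difference over all 4 was 0.53 ± 0.50 (SE). Stromelysin 3 (*Mmp11*), which is unusual in being activated by furin inside the cell, followed the same course. Its table values were -0.65, -0.69, 0.65 and 0.65, a rise of 1.32 ± 0.05 (SE, 2.50-fold, adjusted p = 0.00280). Its scanner values were 0.60, 0.69, 0.60 and 1.93, so 3 arrays were within 0.10 of each other and the array labelled shGR-19 replicate 2 was higher. Stromelysin 1 (*Mmp3*), in the same cluster on chromosome 9 with *Mmp1a* between it and *Mmp10*, had table values of -0.51, 0.11, 0.07 and -0.07 and its lines overlapped (0.20 ± 0.24, adjusted p = 0.571).

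Matrilysin (*Mmp7*), a small MMP of glandular epithelium, fell in the value table from 0.54 and 0.41 to -0.42 and -0.41. The difference was -0.89 ± 0.07 (SE, 1.85-fold, adjusted p = 0.00622). Its scanner values were low on all 4 arrays, at -4.19, -4.80, -4.44 and -4.70, and the lines overlapped (-0.07 ± 0.30). Of the 8 member genes in the chromosome 9 cluster, whose probes lie between 7282762 and 7697700 in mm9, only *Mmp3*, *Mmp10* and *Mmp7* were kept. In the table the first did not pass the test, the second rose and the third fell.

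The membrane-type MMPs parted in the value table. MT2-MMP (*Mmp15*), a transmembrane enzyme, had the largest decrease of the kept member probes, from 0.98 and 0.90 in EV-50 to -0.90 and -0.94 in shGR-19. The fall was -1.86 ± 0.06 (SE, 3.63-fold, adjusted p = 0.00250). Its scanner values were -5.39, -2.09, -5.01 and -4.05, where that of the array labelled EV-50 replicate 1 was not well above background. The array labelled EV-50 replicate 2 alone stood high. Between the arrays labelled replicate 2 shGR-19 was lower by -1.96, and between those labelled replicate 1 no difference could be measured, since the background limit of the EV-50 array lies above the shGR-19 value. MT1-MMP (*Mmp14*), the collagenase and activator of pro-MMP2 at the cell surface, rose modestly in the table, from -0.26 and -0.24 to 0.28 and 0.24 (0.51 ± 0.05, 1.42-fold, adjusted p = 0.00883). Its second probe differed by 0.45 ± 0.07 (SE) and did not pass (adjusted p = 0.0188). By the scanner the brighter *Mmp14* probe read 2.43, 3.56, 2.42 and 3.77, which separates the replicate numbers and not the lines. The GPI-anchored *Mmp17* differed by 0.01 ± 0.09 in the table (adjusted p = 0.970). The 2 probes of *Mmp24* differed by -0.54 and -0.06 and neither passed, and neither did those of *Mmp23* (0.30) and the secreted epilysin *Mmp28* (-0.63).

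Among the ADAMTS genes, *Adamts2*, the protease that removes the N-propeptide of fibrillar procollagens, rose by its brighter probe in the value table, from -0.77 and -1.06 to 0.77 and 0.81. The difference was 1.71 ± 0.12 (SE, 3.26-fold, adjusted p = 0.00564). That probe read -4.34, -6.53, -3.92 and -4.59 on the scanner arrays and was not well above background on the array labelled EV-50 replicate 2. The fitted scanner difference was 1.18 ± 0.80 (SE), or 0.85 with that value set at the background limit of its array, so that whether it exceeded 2-fold was not measured. Of fitted scanner differences this was the 1 member over 2-fold, beside 1.04% of all kept probes over 2-fold higher and 1.16% over 2-fold lower, without a test. A second kept *Adamts2* probe differed by 0.08 ± 0.38 in the table (adjusted p = 0.883), with values of 0.40, -0.56, 0.16 and -0.16 in which the lines overlapped. The 2 probes of *Adamts2* thus gave differences 1.62 apart on the log2 scale, the widest gap among the 10 member genes with 2 kept probes. In mm9 they lie at chr11:50617472-50617531 and chr11:50590188-50590247.

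*Adamts1*, a protease of aggrecan and versican that is needed for ovulation and for normal growth, was lower in the value table by both of its probes, of which the brighter passed. That probe read 0.61, 0.70, -0.63 and -0.61 there, a fall of -1.28 ± 0.06 (SE, 2.42-fold, adjusted p = 0.00340). The dimmer, whose sequence is given above, read 0.55, 0.87, -0.87 and -0.55, a difference of -1.42 ± 0.17 (SE, adjusted p = 0.0134). By the scanner the brighter gave 1.30, 1.66, 0.98 and 0.25 and the dimmer -1.41, -1.33, -1.84 and -2.59. Both shGR-19 arrays lay below both EV-50 arrays by either probe, and the sign was the same within each replicate number (-0.32 and -1.41 for the brighter probe). The fitted scanner differences were -0.87 ± 0.34 and -0.85 ± 0.33 (SE), and neither passed the test over all probes (adjusted p = 1.00).

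*Adamts5*, a main aggrecanase, gave 2 probes with different calls in the table. The brighter differed by 0.27 ± 0.06 (SE, adjusted p = 0.0357) and the dimmer rose by 0.60 ± 0.06 (SE, 1.52-fold, adjusted p = 0.00958). The scanner values of the brighter were 3.52, 4.18, 3.28 and 4.46 and those of the dimmer were -3.61, -2.46, -3.89 and -1.81, and in both the replicate numbers separated and the lines did not. The other aggrecanase, *Adamts4*, differed by -0.38 ± 0.08 (SE, adjusted p = 0.0413) in the table. The remaining ADAMTS probes kept, of *Adamts7*, *Adamts9*, *Adamts10*, *Adamts12*, *Adamts14* and *Adamts18*, did not pass in either source, with table differences from -0.58 to 0.80. Probes of *Adamts9* and *Adamts12* that were well above background only on the 2 shGR-19 arrays are given no fold, since the EV-50 level is then a bound and shGR-19 did not clearly exceed it.

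No TIMP probe reached a 2-fold difference between the lines in either source. *Timp2*, which both inhibits MMPs and assists MT1-MMP in activating pro-MMP2, rose in the value table from -0.44 and -0.37 to 0.53 and 0.37. The difference was 0.86 ± 0.08 (SE, 1.81-fold, adjusted p = 0.00826). Its scanner values were 6.25, 6.10, 6.20 and 6.75, with the array labelled shGR-19 replicate 2 above the other 3 and a difference of 0.30 ± 0.28 (SE). *Timp3*, the TIMP bound to the matrix and the one that inhibits ADAMTS and ADAM proteases most broadly, read 0.20, 0.21, -0.20 and -0.22 in the table. Its difference of -0.42 ± 0.05 (SE) just missed the threshold (adjusted p = 0.0110), and on the scanner arrays it read 6.08, 5.89, 6.31 and 5.02.

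*Timp1*, the inducible secreted inhibitor, differed by -0.11 ± 0.05 and -0.10 ± 0.05 (SE) by its 2 probes in the table (adjusted p = 0.182 and 0.187). The scanner gave the brighter at 4.26, 5.48, 4.37 and 5.27 and the dimmer at 0.81, 2.16, 0.90 and 1.91. Both were thus higher on the arrays labelled replicate 2 in either line, and the 2 probes, whose sequences share no stretch of the mRNA, gave table differences 0.01 apart. *Timp4* differed by 0.01 ± 0.20 in the table (adjusted p = 0.972), and its scanner values of -3.81, -4.24, -3.74 and -4.18 overlapped between lines. Since the arrays read bulk RNA, fewer cells that express a gene and less of its RNA per cell cannot be told apart in any of these values.

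**Figure D2:**
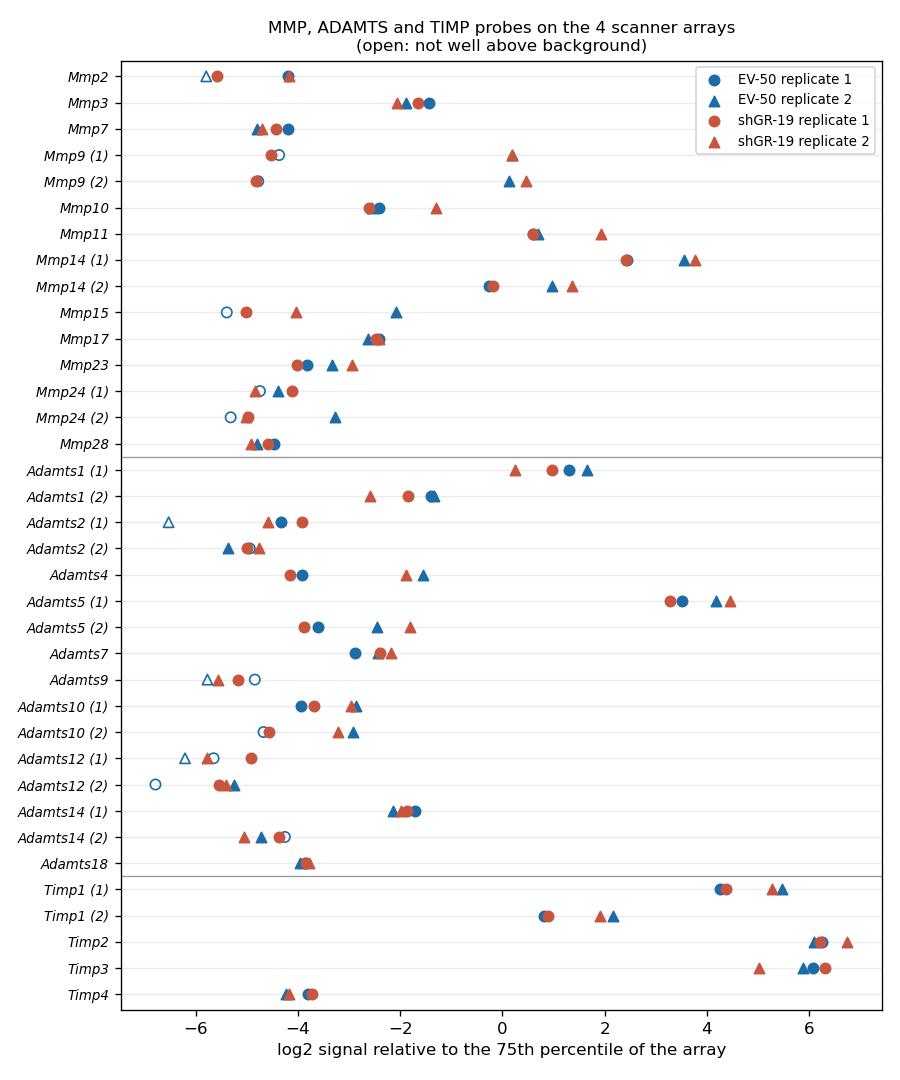
Scanner signal of each of the 36 kept probes (log2 ratio to the array's 75th percentile, horizontal axis) on each of the 4 arrays, with blue for EV-50, red for shGR-19, circles for the arrays labelled replicate 1, triangles for replicate 2 and open symbols for probes not well above background there. Numbers after a name rank the probes of one gene by brightness. The 2 circles of most genes lie close together whatever the line, and for *Mmp9* the circles lie from -4.83 to -4.37 and the triangles from 0.12 to 0.45.

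The largest differences between arrays of the members followed the replicate number and not the line. Gelatinase B (*Mmp9*), which cleaves type IV collagen and was looked at after its values had been seen, read -4.37, 0.18, -4.53 and 0.18 by one probe and -4.78, 0.12, -4.83 and 0.45 by the other. The arrays labelled replicate 2 were therefore higher by at least 23.4-fold and at least 29.8-fold in EV-50, where replicate 1 was not well above background, and by 26.3-fold and 38.9-fold in shGR-19. The second probe is printed 10 times on each array. The median signal of its spots was 19.4, 639.5, 18.5 and 792 on the 4 arrays, and the spots of an array differed with an SD from 0.04 to 0.22 on the log2 scale, so the gap between arrays was far wider than that between spots. In the value table the first *Mmp9* probe read 0.09, 0.07, -0.07 and -0.10, and the lines differed by -0.16 ± 0.05 and by 0.33 ± 0.05 (SE) for the 2 probes (adjusted p = 0.0726 and 0.0207), with opposite signs.

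*Adamts4* showed the next such gap, with scanner values of -3.92, -1.55, -4.16 and -1.89, or 5.19-fold between the EV-50 duplicates and 4.80-fold between those of shGR-19. In all, 8 of the 36 kept member probes were more than 2-fold higher on replicate 2 than on replicate 1 in both lines (22.2%, compared with 2.55% of all kept probes), and 0 were more than 2-fold lower in both (compared with 2.17%). The 8 were both probes of *Mmp9* and of *Mmp14* and 1 probe each of *Adamts4*, *Adamts5*, *Adamts10* and *Timp1*. This was no test, and the 2 replicates carry no meaning in the labels beyond their number. The differences between duplicates had an SD of 1.50 (EV-50) and 1.41 (shGR-19) over the 36 member probes, compared with 0.691 and 0.730 over all kept probes. The gap was smaller among probes well above background on all 4 arrays, which leave out *Mmp9*. There the SD was 0.78 and 0.96 over 23 member probes, compared with 0.62 and 0.70 over all 21179. In the value table the SD of the differences between duplicates was 0.37 and 0.41 over the 36 member probes. There 2 member probes (*Adamts9* and *Adamts10*) had duplicates more than 2-fold apart in either line (5.56%, compared with 3.77% of all kept probes).

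**Figure D3:**
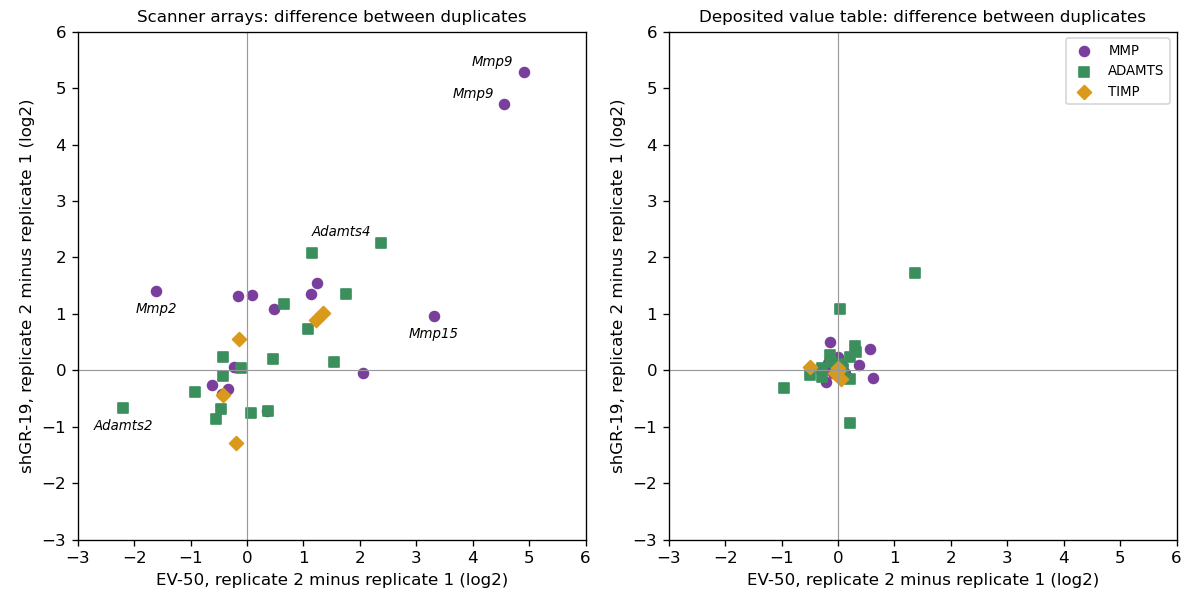
Replicate 2 minus replicate 1 (log2) in EV-50 (horizontal axis) and in shGR-19 (vertical axis) for the 36 kept probes, on the scanner arrays (left) and in the value table (right), by family. Both axes run over the same range. On the scanner arrays the probes spread toward the upper right, with the 2 *Mmp9* probes at 4.55 and 4.90 in EV-50 and 4.71 and 5.28 in shGR-19, and in the table all but a few ADAMTS probes lie within 1 of the origin.

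Within replicate number 2 most member probes, but not all, differed between the lines in the direction of the value table. Between its arrays 8 of the 36 member probes were more than 2-fold apart (22.2%, compared with 5.53% of all kept probes). They were those of *Mmp2*, *Mmp10*, *Mmp11*, *Mmp15* and *Adamts1* (both probes) and 1 each of *Mmp24* and *Adamts2*. Of these, 6 were measured on both arrays and 2 (*Mmp2* and *Adamts2*) by a bound. The probes of *Mmp2*, *Adamts2*, *Mmp15* and *Mmp24* had passed the filter through the shGR-19 arrays alone, so this share depends on that filter. Within replicate number 1, by their values, 2 probes were more than 2-fold apart (5.56%, compared with 3.57%). Of these only *Mmp2* was measured on both arrays, and *Adamts12* was under the background limit. The sign of the table's difference was that of the arrays labelled replicate 2 for 32 of the 36 probes and that of the arrays labelled replicate 1 for 14, and over all 24443 kept probes for 19658 and 12747. These counts compare single arrays and have no replicate check. The dimmer *Mmp24* probe differed by -1.75 within replicate number 2 but by -0.06 in the table, where it did not pass. *Mmp7*, lower by -0.89 in the table, differed by 0.11 within replicate number 2.

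Of the 35 member probes that were not kept, 5 were well above background on 1 or 2 arrays. They were looked at after their values had been seen. *Adamts8*, a protease with antiangiogenic activity, was well above background on both arrays labelled replicate 2 and on neither labelled replicate 1, with scanner values of -6.66, -3.74, -5.94 and -5.65. Its table values of 1.02, 1.06, -1.02 and -1.10 separated the lines, and with all probes of the array tested the difference was -2.10 ± 0.07 (SE, adjusted p = 0.0113). Collagenase 3 (*Mmp13*) was likewise detected on the arrays labelled replicate 2 alone, at -3.84 and -3.61, and differed by 0.15 ± 0.16 in the table (adjusted p = 0.541). The interstitial collagenase *Mmp1a* and further probes of *Adamts2* and *Adamts12* were detected on the array labelled shGR-19 replicate 2 alone. In this fit on all probes no member probe had an adjusted p below 0.01, whether kept or not.

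Genes that act with these proteases were read from lists, by the brightest kept probe of each gene. Over all 16760 genes so read in the value table, 6.10% were higher and 6.51% lower in shGR-19 at an adjusted p below 0.01. Of the 26 member genes 6 were higher (23.1%) and 3 lower (11.5%). Of the 86 genes kept over 11 lists, 15 were higher and 10 lower, and on the scanner arrays 0 passed. The differences given for list genes are the table's unless stated. By the scanner, *Plau* differed by -0.08 within replicate number 1 and 1.05 within number 2. *Lrp1* differed likewise by -0.09 and 0.97, and *Adam8* by -0.19 and -1.64. With the replicate number as a block, which leaves 1 residual degree of freedom, 0 list genes passed, and with all probes kept 1 did. The share of all genes is given for neither. Activators and the plasminogen system, which turn pro-MMPs into active enzymes, had 3 of 9 kept genes higher and 1 lower (median 0.26). Urokinase (*Plau*), which turns plasminogen into plasmin, rose by 0.99 ± 0.06 (SE, adjusted p = 0.00500). *Furin*, the convertase that activates MMP11 and MT-MMPs, rose by 0.52 ± 0.05 (adjusted p = 0.00867), and the antiplasmin gene *Serpinf2* fell by -0.60 ± 0.06 (adjusted p = 0.00838). The ADAM sheddases, membrane relatives that release growth factors and receptors, had 0 of 9 higher and 1 lower (median -0.04), *Adam8*, by -1.59 ± 0.06 (SE, adjusted p = 0.00276). The ADAMTS-like genes, which lack protease domains, had none of 3 pass (median 0.40).

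Among other inhibitors and cell-surface partners 1 of 9 kept genes was higher and 2 were lower (median -0.02). The endocytic receptor *Lrp1*, which clears several MMPs, rose by 0.87 ± 0.05 (SE, adjusted p = 0.00457), and *Pcolce*, an enhancer of procollagen processing, and thrombospondin 1 (*Thbs1*) fell by -0.85 and -0.58 (adjusted p = 0.00896 and 0.00883). Matrix substrates had 3 of 13 kept genes higher and 1 lower (median -0.03). *Col1a2*, a chain of type I collagen and so a substrate of *Adamts2*, had the largest rise of any listed gene, 3.27 ± 0.05 (SE, adjusted p = 0.00121), and its scanner values were 0.68, 1.56, 0.64 and 4.93. The basement membrane linker nidogen 1 (*Nid1*) rose by 1.47 ± 0.06 (adjusted p = 0.00332) and *Col2a1* by 0.80 (adjusted p = 0.00580), while osteopontin (*Spp1*), which MMPs cleave, fell by -0.94 (adjusted p = 0.00365). AP-1, ETS and RUNX factors had 3 of 14 higher and 1 lower (median 0.43). *Fos* rose by 1.21 ± 0.07 (SE, adjusted p = 0.00457), *Fosb* by 0.88 (adjusted p = 0.00395) and *Etv4* by 0.54 (adjusted p = 0.00760). *Ets1* fell by -0.62 (adjusted p = 0.00804). By the scanner these genes differed, in that order, by 0.30, 0.11, 0.03 and -0.03 within replicate number 1. Within number 2 they differed by 1.02, 1.23, 0.58 and -0.60.

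**Figure D4:**
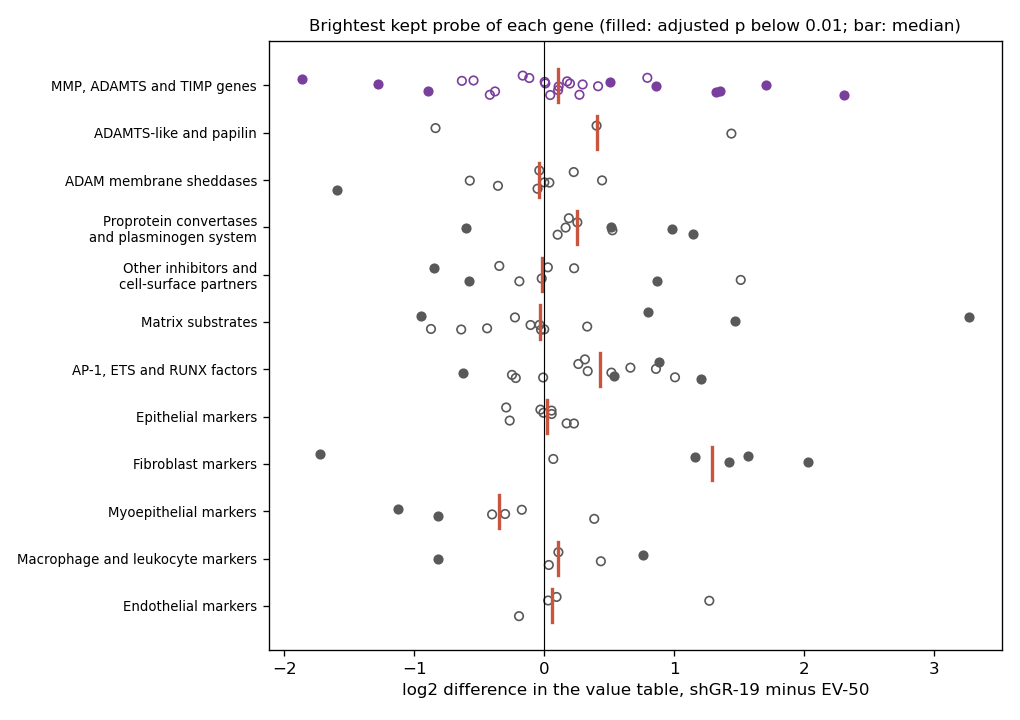
Log2 difference in the value table (shGR-19 minus EV-50, horizontal axis) for the brightest kept probe of each gene, for the member genes (purple) and for each list (grey), with filled points for an adjusted p below 0.01 and a red bar at the median. Vertical scatter within a row carries no value. The member genes run from -1.86 (*Mmp15*) to 2.31 (*Mmp2*), and the fibroblast markers have the highest median of the lists, 1.29.

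Markers of the labelled cell type were present. Of 10 epithelial markers 8 were kept (all but *Krt19* and *Elf5*), with 0 higher and 0 lower (median 0.03), and their summed scanner level, in units of the array's 75th percentile, was 983 and 844 in EV-50 and 1020 and 795 in shGR-19. Fibroblast markers, 6 of 10 kept, had 4 higher and 1 lower. The receptor *Pdgfrb* rose by 2.03, *Prrx1* by 1.57, *Twist2* by 1.42 and *Pdgfra* by 1.17 (adjusted p from 0.00232 to 0.00385). Periostin (*Postn*) fell by -1.72 (adjusted p = 0.00253). By the scanner these genes differed, in that order, by 0.20, -0.02, 0.10, 0.74 and -0.34 within replicate number 1. Within number 2 they differed by 2.16, 1.27, 1.26, 1.16 and -1.63. *Pdgfra*, at -5.74 on the array labelled EV-50 replicate 1, lay under the background limit there (-4.81). The summed scanner level of the fibroblast markers was 4.12 and 37.3 in EV-50 and 3.68 and 27.6 in shGR-19, and was higher on the arrays labelled replicate 2. Of its members *Postn* (by 3.91 and 2.63 on the log2 scale in EV-50 and shGR-19) and *Pdgfrb* (3.98 and 5.94) were higher there, as was *Pdgfra* in shGR-19 (2.17), while *Prrx1* was lower (-2.33 and -1.05) and *Twist1* and *Twist2* went opposite ways in the lines. The markers *Thy1*, *Lum*, *Fap* and *Col5a2* were not kept. Myoepithelial markers had 0 of 6 higher and 2 lower (median -0.35), *Krt14* by -1.13 (adjusted p = 0.00332) and *Krt17* by -0.81 (adjusted p = 0.00638), and summed to 70.1 and 174 in EV-50 and 72.1 and 85.3 in shGR-19. Macrophage and leukocyte markers had 1 of 5 kept genes higher (*Lyz2*, 0.76) and 1 lower (*Cd14*, -0.81), with a median of 0.11. By the scanner *Lyz2* differed by 0.23 within replicate number 1 and -0.30 within number 2, and *Cd14* by -0.15 and -0.66. The leukocyte marker sums were 3.15 and 3.23 in EV-50 and 2.85 and 2.31 in shGR-19. The defining leukocyte markers *Ptprc*, *Emr1*, *Itgam*, *Cd53* and *Laptm5* were not kept. Of 7 endothelial markers 4 were kept and 0 passed (median 0.06), their sums ran from 0.15 to 0.18, and *Pecam1*, *Cdh5* and *Tie1* were not kept. The part of fibroblast or myoepithelial markers in the differences of *Mmp2*, *Mmp15* and *Mmp9* was not tested.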

How the data were processed

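Cy3-labelled RNA of the 2 lines was read on 1-colour Agilent arrays of the whole mouse genome. The authors deposited scanner output with the background-subtracted intensity of each spot (Agilent Feature Extraction 10.5.1.1, per the submitters' processing notes), not scaled between arrays, and a GeneSpring table of log2 values in which each probe is centred on its median. The table's column medians were 0.08, 0.04, -0.06 and -0.06, and the study's methods name GeneSpring's recommended one-colour steps without saying which scaling between arrays they were. Each column was matched to a sample by its label.

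Scanner values are log2 ratios of each processed signal to its array's 75th percentile (528, 584, 516 and 579), without control spots and outlier spots (139, 87, 74 and 80 on the arrays, of which 2 belonged to members), and the spots of a probe were averaged. No spot was saturated. Probes were kept if well above background on both duplicates of either line, and the same probes were used from the table. The test between lines was limma's (3.58.1, R 4.3.3; lmFit and eBayes, two-sided, Benjamini-Hochberg over all kept probes). Both the fold and the p of a call are those of the study's methods, which name no adjustment. With 2 arrays in each line the smallest p of an exact permutation test is 0.333, and it was left out. The test was tried on simulated data. Probe coordinates are in mm9, as in the array annotation. The 42 gene names were matched to RefSeq, and promoters came from RefSeq GRCm38.p6.

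The members and the 11 lists, and the tests, were chosen with earlier results of these data known. Described in full were 13 genes: those with a kept probe that passed or differed by more than 2-fold in either source, and all TIMPs. The lists hold ADAMTS-like genes, ADAM sheddases, convertases and the plasminogen system, other inhibitors, matrix substrates, AP-1, ETS and RUNX factors, and epithelial, fibroblast, myoepithelial, leukocyte and endothelial markers, and their genes were named where they passed, except 1 that is counted but not reported here. Alternatives were normexp background correction (offset 50), quantile normalization, another scaling percentile, 2 other filters, a prior that is robust and follows intensity (statmod 1.5.0), a block for replicate number, omission of each array, unadjusted p and, added after seeing the data, each replicate number on its own.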

Additional observations from a re-analysis of the deposited data

How the results depend on the processing

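Member probes were counted at more than 2-fold with an adjusted p below 0.01, and list genes at that p with no limit on the fold. On the scanner arrays both counts were 0 under every alternative run on them, and with the value table in their place they were 6 and 25. In the table they were 0 and 1 with all probes kept and 4 and 30 with probes detected on all 4 arrays. Those 4 came from 23 member probes and were of *Mmp10*, *Mmp11* and both probes of *Adamts1*. The called probes of *Mmp2*, *Adamts2* and *Mmp15* were not detected on all 4 arrays and so were not tested there. No share of all probes is given for these alternatives or for those that follow. The counts therefore do not show whether members or list genes exceeded the rate over the whole array. The counts were 6 and 47 with an intensity trend and robust prior, and 7 and 38 without adjustment. With any 1 column left out, a lone sample was taken to have the other line's spread. Leaving out a column removes 1 of the 2 residual degrees of freedom, as does a block. With the replicate number as a block both counts were 0 in the table and on the scanner arrays. The numbers in the labels are not said to mark a shared day or culture. The difference between duplicates in EV-50 correlated with that in shGR-19 with r = 0.764 over the 36 member probes and 0.574 over all kept probes on the scanner arrays, and with 0.517 and 0.06 in the table (across probes, which are not independent replicates).

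The median difference over member probes in the table was 0.07, and -0.24 with all probes kept, 0.18 with probes detected on all 4 arrays and from -0.041 to 0.13 with each column left out. On the scanner arrays it was -0.12 to 0.42 with each array left out, -0.05 on replicate 1 and 0.13 on replicate 2 alone. Single differences that changed sign when an array was left out ran, on the scanner arrays, from -0.69 to 0.92 for *Mmp2*, from -0.14 to 1.19 for *Mmp10*, from -0.052 to 1.28 for *Mmp11*, from -0.38 to 0.24 for *Mmp7*, from -2.44 to 0.86 for *Mmp15*, from -0.58 to 0.77 and -0.53 to 1.01 for *Mmp14*, from -0.56 to 0.61 and -0.85 to 1.23 for *Adamts5*, from -0.66 to 0.56 and -0.75 to 0.60 for *Timp1*, from -0.96 to 0.33 for *Timp3* and from -0.15 to 0.29 for *Timp4*. In the table they ran from -0.40 to 0.56 for the dimmer *Adamts2* probe and from -0.24 to 0.26 for *Timp4*. With normexp, *Mmp2* was at -0.078 and *Timp4* at -0.082, and with quantile normalization *Mmp7* was at 0.029. The brighter *Adamts2* probe kept its sign with normexp, but its scanner difference went from 1.18 to 0.24 ± 0.27 (SE). The cause was not tested. Other probes of the 13 genes described in full kept their sign, except on each replicate number alone, where *Timp2* differed by -0.05 on replicate 1 and 0.65 on replicate 2 and the dimmer *Adamts2* probe, at -0.05 and 0.62, was not well above background on the array labelled EV-50 replicate 1.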
